A study of Mus musculus with 2 samples.

Results

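The levels of 9 genes with roles in tendon, cartilage and meningeal cells were followed through the mesenchymal cells of a healing mouse skull defect: Scx, Tnmd, Comp, Sox9, Acan, Clec11a, Foxd1, Foxc1 and Foxc2. They were taken by symbol, all 9 were found among the 32285 genes of the deposited matrices, and each had at least 200 unique molecular identifiers (UMIs) in the lineage, as 12816 genes did. Single cells were profiled by 3′ sequencing in 2 libraries, 1 per condition, from the calvaria of male C57BL/6 mice (C57BL/6J in the study's text). In both, a defect was made in the cranial bone, and a piece of bone with the defect at its centre and an edge of about 3 mm was digested with collagenase 7 days later. The GA treated mice received gambogic amide, a small-molecule agonist of the nerve growth factor receptor TrkA, at 1.2 mg/kg in 100 µL of 10% DMSO by intraperitoneal injection, and the control mice received 10% DMSO alone. Treatment began 24 h before the injury and went on daily for 1 week. The dose is that of the sample labels, and the study's text gives a higher one. Cells of several mice were pooled in each library and red blood cells were lysed before loading. Because animals were pooled, no spread between animals could be measured, no test between conditions was possible, and each interval given is a 95% interval of counting error only.

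Scleraxis (Scx) is the transcription factor that marks tendon and ligament progenitors, and tenomodulin (Tnmd) is a membrane protein of maturing tendon cells. Sox9 is the master transcription factor of cartilage, and aggrecan (Acan) and cartilage oligomeric matrix protein (Comp) are matrix components of cartilage and, for Comp, of tendon. Clec11a encodes osteolectin, a secreted factor that promotes bone formation and binds integrin α11. Foxd1, Foxc1 and Foxc2 are forkhead transcription factors, of which Foxc1 is needed for the skull vault and the meninges, the membranes that lie under it. The skull bones form directly from mesenchyme, without a cartilage model, and the tissue around them holds fibroblasts, the sutures and the outer meninges.

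The GA library held 9322 barcodes and the control library 8718, and 8375 and 7555 cells were kept, with medians of 10930 and 16336 UMIs. The mesenchymal lineage comprised 2613 cells, 866 of GA and 1747 of control, or 10.3% and 23.1% of the cells kept, with medians of 50997 and 51252 UMIs per cell. The genes lie on several chromosomes (GENCODE, GRCm38): Scx on 15, Clec11a (44302687 to 44306902, - strand) and Acan (79053483 to 79115099) on 7, Foxd1 (98354242 to 98359305) and Foxc1 (31806633 to 31812476) on 13, Foxc2 (121116171 to 121118895) and Comp (70373558 to 70382066) on 8, Sox9 on 11 (112782224 to 112787760) and Tnmd on X (133850980 to 133865577). Foxc2 overlaps Gm20388 on the same strand in that annotation. No cell barcode of the lineage occurred in both libraries. The lineage was split into 14 clusters without the use of the 9 genes or of the markers that named the groups. They formed a dividing group (146 cells), a Stem 2-like group rich in Cd34 and Clec3b (1201), a multilineage progenitor-like group (233), an osteoblast-like group (139) and a fibroblastic progenitor-like group marked by Eln and Mgp (429). A cluster of 181 cells led by Fat3, Bglap2, Dapk2 and Alpl and a cluster of 284 cells led by Adgrb3 and Dlk1 met no naming rule and are called by their leading genes. The multilineage progenitor-like group was not stable under clustering. Most cells of the Fat3 and Bglap2 cluster fell into it under 7 of 10 further seeds and 7 of 9 other ways of grouping the cells. With seeds 2 and 4 most of the 181 cells of that cluster, 165 and 169, fell into the osteoblast-like group instead. With log1p of counts and with cells from 2000 UMIs 148 and 157 did. Most cells of the Stem 2-like cluster led by Egfl6 and Cxcl14 fell into the multilineage progenitor-like group under 9 of the 10 seeds and 7 of the 9 other ways. Over all these seeds and ways of grouping the size of the multilineage progenitor-like group ranged from 190 to 651 cells. Its values, those of these 2 clusters beside it and those of the osteoblast-like group therefore hold for the grouping used here. The study used Scx and Clec11a as markers of its multilineage progenitor and Foxd1 and Foxc2 as markers of its fibroblastic progenitor, chosen on these same libraries, so their levels in those groups are no independent evidence. Transcripts of neutrophils differed between the libraries in these cells. The 7 genes of a neutrophil list summed to 1871 CPM, the UMIs of the genes scaled to all UMIs of the cells, in the lineage of GA and 221 CPM in that of control, from 468 to 9155 CPM over the groups of GA and from 146 to 2263 CPM over those of control, highest in the osteoblast-like group, and none of the 7 was at 0. Summed pericyte markers were 41.9 and 56.5 CPM, endothelial markers 12.9 and 19.8 CPM, keratinocyte markers 16.9 and 12.7 CPM and Schwann cell markers 8.33 and 12.3 CPM, the last reaching 112.6 and 53.4 CPM in the fibroblastic progenitor-like group. There the endothelial markers reached 84.5 and 69.4 CPM and the pericyte markers 94.3 and 77.1 CPM. With background transcripts subtracted, the ratio of each of the 9 genes between the libraries stayed within its counting interval. The background was put at only 5.82% in GA and 5.41% in control, which left the ratios little room to move. This step therefore says little about the part of these markers in the results, which was otherwise not tested.

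**Figure D1:**
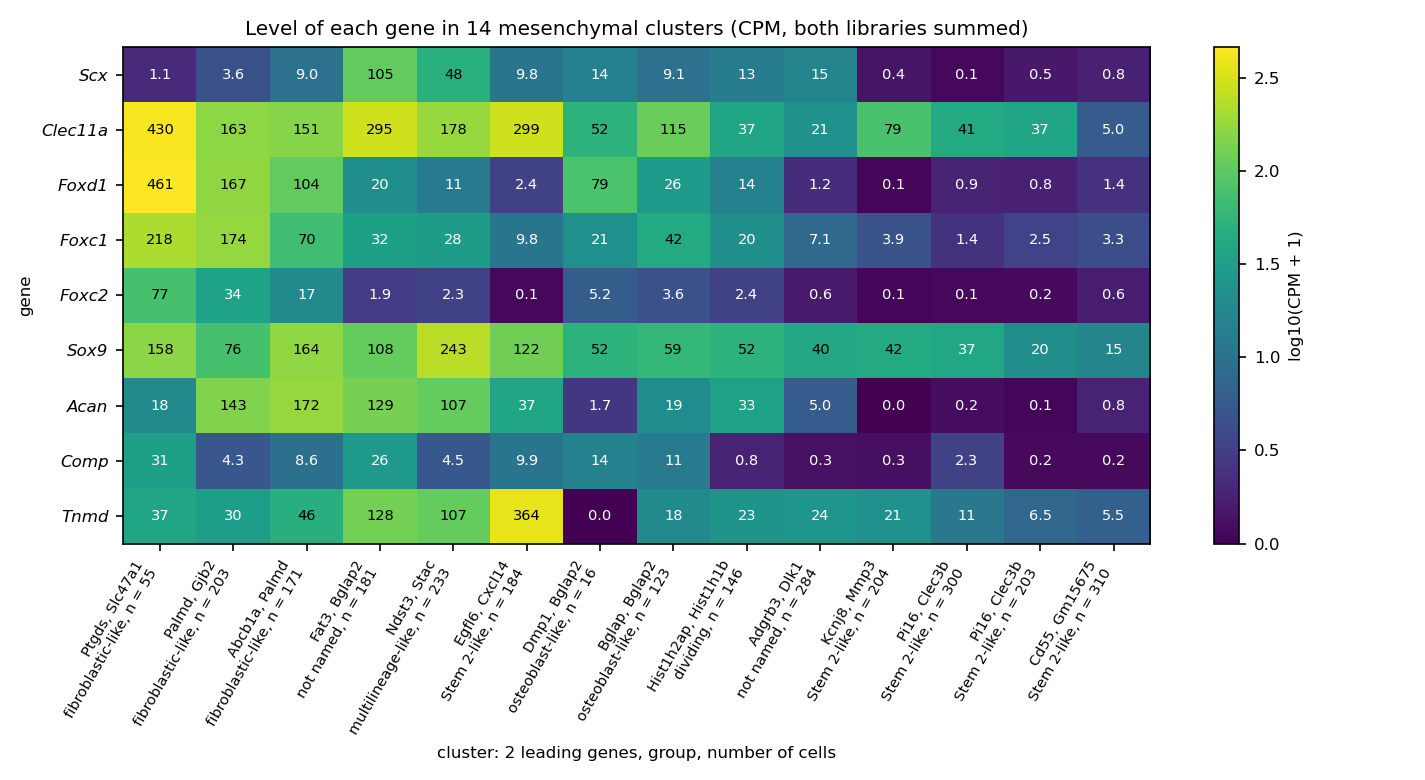
Level of each of the 9 genes (rows) in the 14 mesenchymal clusters (columns, with 2 leading genes, group and number of cells), in CPM with the UMIs of both libraries summed; the colour is log10(CPM + 1). The forkhead genes were highest in the 3 fibroblastic progenitor-like clusters at the left, Scx in the Fat3 and Bglap2 cluster at 105 CPM, and Tnmd in the Egfl6 and Cxcl14 cluster at 364 CPM.

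Scx was concentrated in few cells. In the control library its level was highest in the Fat3 and Bglap2 cluster, at 118.5 CPM (95% interval 110 to 127), followed by the multilineage progenitor-like group at 50.6 CPM (46.4 to 55.1), and it was 2.08 CPM in the Stem 2-like group. In the GA library the same order was seen, with 69.9 CPM (59.5 to 81.6), 38.1 CPM (31.4 to 45.9) and 0.69 CPM. The Fat3 and Bglap2 cluster and the multilineage progenitor-like group did not overlap in either library, and together they held most of the Scx UMIs of the lineage, 161 and 111 of 370 UMIs in GA and 733 and 531 of 1870 in control. A UMI of Scx was found in 72.9% of the cells of the Fat3 and Bglap2 cluster in both libraries, 35 of 48 cells of GA and 97 of 133 of control. Scx was itself among the 10 leading genes of this cluster, beside Alpl, the alkaline phosphatase of mineralising cells, Dlx5, a transcription factor of osteoblast differentiation, and Sox6. Scx lies inside Bop1 on the opposite strand, on chromosome 15 from 76457452 to 76459458 (GRCm38), and its reads can be told from those of Bop1 only by strand.

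Tnmd, which Scx is known to activate in tendon, was highest elsewhere. A cluster of 184 Stem 2-like cells led by Egfl6, Cxcl14 and Scara5 had 356 CPM of Tnmd in GA and 368 CPM in control, a difference within counting error (log2 ratio -0.05, -0.17 to 0.07). The other 4 Stem 2-like clusters had 5.53 to 21.3 CPM with both libraries summed, but in 2 of them the libraries differed more. The cluster led by Kcnj8 and Mmp3 had 43.6 CPM in GA and 10.4 CPM in control (log2 ratio 2.07, 1.66 to 2.48). The cluster led by Pi16, Clec3b and Serpina3n had 19.96 and 2.15 CPM (3.22, 2.45 to 4.05) on 57 and 19 UMIs. The Egfl6 and Cxcl14 cluster had little Scx, 4.55 CPM in GA and 12.3 CPM in control, and 299 CPM of Clec11a with both libraries summed. Tnmd was next in the Fat3 and Bglap2 cluster, at 89.5 CPM (77.7 to 103) in GA and 142.2 CPM (133 to 152) in control, and in the multilineage progenitor-like group, at 81.0 and 114.7 CPM. The first of these was above the second in control, while their intervals overlapped in GA. The fibroblastic progenitor-like cluster led by Abcb1a, at 87.1 CPM, lay between them in GA, and it had 40.7 CPM in control. Across the lineage, cells with a UMI of Scx had 96.4 CPM of Tnmd in GA and 110.7 CPM in control, against 33.6 and 36.7 CPM in cells without one. The median depth of those cells was 50756 against 50997 UMIs in GA and 59073 against 49221 in control. Both genes were detected together in 58 of 866 lineage cells of GA and 207 of 1747 of control.

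Comp had the fewest UMIs of the 9 genes, 648 in all, with 276 UMIs in 58 cells of GA and 372 UMIs in 89 cells of control. Few cells carried much of it: the 5 cells with the most Comp held 110 of the 276 UMIs in GA and 159 of the 372 in control. With both libraries summed it was highest in the fibroblastic progenitor-like cluster led by Ptgds and Slc47a1, at 30.7 CPM, and in the Fat3 and Bglap2 cluster, at 26.0 CPM, with overlapping intervals. In the former 56 UMIs came from control and 1 from GA.

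Sox9 was the most widely detected transcription factor of the 9 genes, in 55.7% of lineage cells of GA and 63.8% of control. It was highest in the multilineage progenitor-like group, at 198.8 CPM (183 to 216) in GA and 255.1 CPM (246 to 265) in control. The fibroblastic progenitor-like group had 118.7 and 123.9 CPM and the Fat3 and Bglap2 cluster 134.2 and 97.9 CPM, in GA with overlapping intervals and in control without overlap. The Stem 2-like group had 35.0 and 38.2 CPM. No group was without Sox9.

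Acan had a sharper pattern. In control the fibroblastic progenitor-like group and the Fat3 and Bglap2 cluster had the highest levels, 145.0 CPM (139 to 151) and 139.2 CPM (130 to 149), whose intervals overlapped, and the multilineage progenitor-like group followed with 89.5 CPM (83.9 to 95.4). In GA the multilineage progenitor-like group had 171.3 CPM (157 to 187), with 246 of its 499 UMIs from 5 cells, and the fibroblastic progenitor-like group 131.9 CPM (117 to 148). By cluster, the GA levels inside the latter were 185.4 CPM (154 to 221) in the Palmd cluster, 172.0 CPM in the Abcb1a cluster and 6.98 CPM in the Ptgds cluster, and the intervals of the first and second overlapped that of the multilineage progenitor-like group. The Stem 2-like group had 3.57 and 5.11 CPM. Within the fibroblastic progenitor-like group Acan was 143 and 172 CPM in the larger clusters and 17.8 CPM in the 55 cells led by Ptgds. Cells with a UMI of Acan had 140.3 CPM of Sox9 in GA and 156.1 CPM in control, against 41.8 and 52.2 CPM in cells without one, at median depths of 46962 and 49020 UMIs against 52404 and 52716. A UMI of Sox9 was found in 80.9% of Acan-positive cells of GA and 80.6% of control.

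Several other genes of cartilage had few UMIs. Of the 15 genes of a cartilage list, 9 reached 200 UMIs in the lineage. Col2a1, the main collagen of cartilage, had 11 UMIs in GA and 46 in control over the whole lineage, and Matn1, a matrilin of cartilage matrix, had 0 in both. Sox6, a partner of Sox9, reached 97.1 CPM in the multilineage progenitor-like group and 157.5 CPM in the Fat3 and Bglap2 cluster. Hapln1, the link protein that holds aggrecan on hyaluronan, was at 9.0 and 9.2 CPM there. Sox5 showed the opposite pattern, with 428 CPM in the Stem 2-like group against 194 CPM in the multilineage progenitor-like group. Of the 9 cartilage genes, 5 were at least 2-fold higher in the multilineage progenitor-like group than in the rest of the lineage, Sox6, Col9a1, Hapln1, Matn3 and Col11a1, where 3.28% of all 12816 genes were. The count was also 5 in the osteoblast-like group, where 5.81% of all genes were and Sox6 was 122.3 CPM, 5 in the Fat3 and Bglap2 cluster (4.22%) and 4 in the fibroblastic progenitor-like group (9.29%). Col10a1, the collagen of hypertrophic cartilage, was 20.8 CPM in fibroblastic progenitor-like cells and at most 0.49 CPM in the other groups, with 386 UMIs in control and 4 in GA. Over the cartilage list, 1 of the 9 genes was at least 2-fold higher in GA, Col11a2, and 1 lower, Col10a1, where 1.76% and 1.71% of all genes were, with a median log2 ratio of -0.36. Of the 10 genes of a tendon and ligament list, none was 2-fold higher in the multilineage progenitor-like group, where 3.28% of all genes were. None was in the osteoblast-like group either (5.81%). The count was 3 in the fibroblastic progenitor-like group, where 9.29% of all genes were, and 3 in the Fat3 and Bglap2 cluster (4.22%), in both Mkx, Chad and Cilp2. It was 3 in the Stem 2-like group, 2 in the Adgrb3 and Dlk1 cluster and 1 in the dividing group, for which no share of all genes is given. Mkx, a tendon transcription factor, was 42.1 CPM in the Fat3 and Bglap2 cluster, 38.0 in the fibroblastic and 33.9 in the multilineage progenitor-like group. Thbs4 and Kera, matrix genes of tendon and cornea, were highest in dividing and Stem 2-like cells respectively, at 29.4 and 3.75 CPM. Of the 10, 1 was at least 2-fold lower in GA, Chad, and none higher, where 1.71% and 1.76% of all genes were, with a median log2 ratio of -0.54.

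Clec11a had the most UMIs of the 9 genes, 3857 UMIs in GA and 10206 in control, and was detected in 57.2% and 69.7% of lineage cells. With both libraries summed it was 430 CPM in the Ptgds cluster, 299 CPM in the Egfl6 and Cxcl14 cluster, 295 CPM in the Fat3 and Bglap2 cluster and 178 CPM in the multilineage progenitor-like group. The osteoblast-like group was lower, at 102.6 CPM (92.4 to 114) in GA and 118.2 CPM (105 to 132) in control. The lowest level was 5.01 CPM, in the Stem 2-like cluster of 310 cells led by Cd55. Clec11a thus varied widely inside the Stem 2-like group, from 5.01 to 299 CPM between clusters. Itga11, which encodes the integrin α11 subunit that osteolectin binds, was the gene whose level over the 14 clusters was most like that of Clec11a, with a Pearson correlation of 0.95. It was 119.8 CPM in the Fat3 and Bglap2 cluster, 84.0 in the multilineage, 71.2 in the osteoblast-like and 67.7 in the fibroblastic progenitor-like group, against 21.7 in Stem 2-like cells. Its partner Itgb1 was high in all groups, between 320 and 621 CPM. Lepr, the leptin receptor of marrow stromal cells, was 18.05 CPM in the fibroblastic progenitor-like group and at most 6.95 CPM elsewhere. None of these 3 genes or of Itga10, also in the list, differed 2-fold between the libraries, with a median log2 ratio of -0.25. Of all genes, 1.76% were at least 2-fold higher in GA and 1.71% lower.

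The 3 forkhead genes had their highest levels in the fibroblastic progenitor-like group. Foxd1 was 280.7 CPM (259 to 304) there in GA and 153.6 CPM (148 to 160) in control, Foxc1 151.1 CPM (135 to 169) and 129.5 CPM (124 to 135), and Foxc2 37.5 CPM (29.8 to 46.7) and 30.4 CPM (27.8 to 33.2). The osteoblast-like group followed in GA, with 34.7 CPM of Foxd1, 41.4 of Foxc1 and 5.08 of Foxc2, each with an interval that overlapped that of the next group. The values for control were 26.3, 36.9 and 1.96 CPM. The group also followed there for Foxd1 and Foxc1, again with overlap. For Foxc2 in control it lay below the dividing group (2.93 CPM), the multilineage progenitor-like group (2.67) and the Fat3 and Bglap2 cluster (2.42), with overlapping intervals. The intervals of the fibroblastic progenitor-like group stood apart from those of every other group for all 3 genes in both libraries. Over the rest of the lineage, with both libraries summed, the log2 ratio in that group was 4.76 for Foxd1, 3.45 for Foxc1 and 4.91 for Foxc2. A UMI of Foxd1 was found in 85.0% of its cells in GA and 90.2% in control, of Foxc1 in 88.3% and 91.3%, and of Foxc2 in 30 of 60 and 191 of 369 cells. All 3 were detected in the same cell in 26 of its 60 cells of GA and 164 of its 369 cells of control, and in 0 of 472 and 0 of 729 Stem 2-like cells, which allows a share of cells with all 3 UMIs of up to 0.636% and 0.412%, at 3 counts of the total. Among all lineage cells with a UMI of Foxd1, 82.9% also had one of Foxc1 in control and 68.2% in GA, against 28.1% and 19.6% of cells without.

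Inside the fibroblastic progenitor-like group the levels were uneven. The 55 cells led by Ptgds, Slc47a1 and Gjb6 had 461 CPM of Foxd1, 218 of Foxc1 and 77.1 of Foxc2, and the clusters of 203 and 171 cells led by Palmd and by Abcb1a had 167 and 104 CPM of Foxd1, 174 and 69.7 of Foxc1 and 34.5 and 17.5 of Foxc2. Ptgds, a prostaglandin synthase, Slc47a1, a transporter, and the gap junction genes Gjb2 and Gjb6 are known markers of the arachnoid and other meningeal fibroblasts. Of 15 genes of a meningeal list, 12 reached 200 UMIs and 10 of them were at least 2-fold higher in the fibroblastic progenitor-like group, where 9.29% of all genes were. Zic1 and Zic4, transcription factors of the meninges and the skull base, were at 124.3 and 51.0 CPM there, against at most 49.6 and 12.3 CPM in the other groups. The exceptions were Foxp1, at 1092 CPM and under 2-fold, and Dpp4, which was highest in Stem 2-like cells at 128.4 CPM. Between the libraries 1 of the 12 was at least 2-fold higher in GA, Dpp4, and 4 were lower, Ptgds, Cldn11, Gjb2 and Nnat, where 1.76% and 1.71% of all genes were, with a median log2 ratio of -0.42. None of the 12 was 2-fold higher in the multilineage progenitor-like group, where 3.28% of all genes were.

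**Figure D2:**
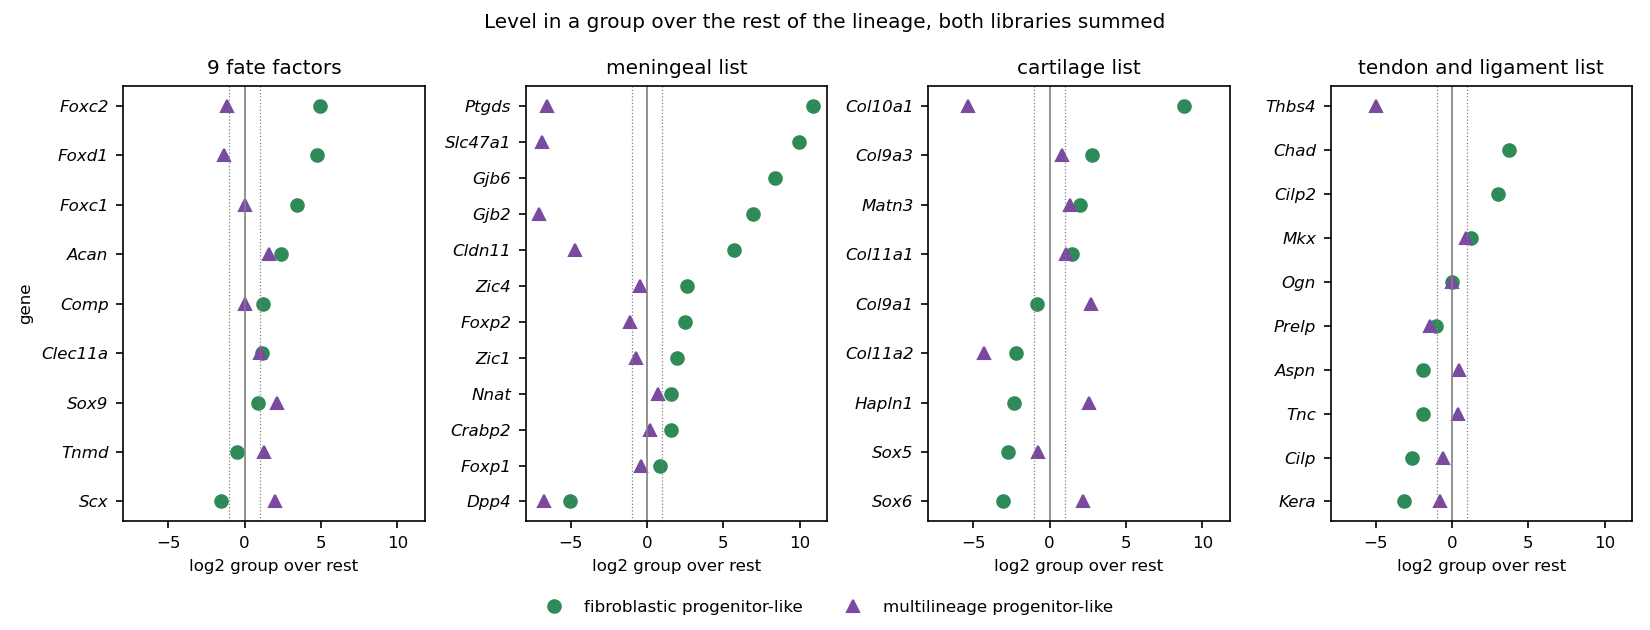
Log2 ratio of the level in the fibroblastic progenitor-like group (circles) and in the multilineage progenitor-like group (triangles) over the rest of the lineage, both libraries summed, for the 9 genes and for the genes of the meningeal, cartilage and tendon lists with at least 200 UMIs; dotted lines mark 2-fold, and a gene with 0 UMIs in a group has no symbol for it. Circles stand to the right of 2-fold for 10 of 12 meningeal genes.

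Foxd1 and Foxc1 were also alike over the 14 clusters, with a Pearson correlation of 0.94, and Foxd1 and Foxc2 with one of 0.95. These correlations describe 14 clusters that share libraries and were made from the same cells. The upstream sequences of Foxd1 and Foxc1 are shown because the levels of these genes were alike, and no window for Foxc2 was at hand. They are the 250 bases before the start of each gene (RefSeq, GRCm38.p6, + strand), at chr13:98353995-98354244 for Foxd1 and chr13:31806396-31806645 for Foxc1, with matches to the E-box letters CANNTG in capitals.
Foxd1: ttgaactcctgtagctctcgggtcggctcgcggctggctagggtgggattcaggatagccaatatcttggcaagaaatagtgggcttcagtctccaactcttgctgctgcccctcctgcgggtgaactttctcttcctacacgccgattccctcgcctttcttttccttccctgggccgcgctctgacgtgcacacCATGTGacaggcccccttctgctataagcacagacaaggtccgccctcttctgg
Foxc1: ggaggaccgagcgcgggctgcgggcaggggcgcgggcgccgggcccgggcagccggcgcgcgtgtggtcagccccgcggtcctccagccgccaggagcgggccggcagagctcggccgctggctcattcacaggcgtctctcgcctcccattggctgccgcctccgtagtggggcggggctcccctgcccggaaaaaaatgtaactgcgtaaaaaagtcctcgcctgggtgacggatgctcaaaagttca
Foxd1 held 1 match to CANNTG, 54 bases before the start, and Foxc1 held 0, where 66.2% of 32851 windows of this length held at least 1. Neither held the forkhead letters GTAAACA on either strand, which 3.17% of those windows did. Clec11a, Acan and Tnmd were the other genes with a window, and none held GTAAACA.

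The genes most like each of the others over the 14 clusters were taken by the same correlation. For Scx they included Klf8 (0.95), Runx3 (0.92), Npas3 and Slc30a5, of which Runx3 is a transcription factor of the Runx family that also acts in bone. For Tnmd they were the ephrin receptors Ephb2 (0.93) and Epha3 (0.90), then Nkd1, Mest and Tenm3. Epha3 and Tenm3 are among the markers that named the multilineage progenitor-like group. For Sox9 they were Hbegf (0.91), Fmod, Ak5, Casc4 and Ssh1, and for Acan Eya1 (0.97), Ptpn14, Tenm4, Fmod and Tec. Fibromodulin (Fmod), a collagen-binding proteoglycan of tendon and cartilage, thus stood in both lists. Fmod is also among the markers that named the multilineage progenitor-like group. For Clec11a, Itga11 was followed by Shank1, Atp8a1, Mkx and Olfml3. For Foxc1 they were Cxadr (0.97), Ptpn1, Nebl, Tfap2b and Pawr, for Foxc2 Col26a1 (0.97), Cldn11, Serpinb6b, S100a1 and Foxd1, and for Foxd1 Foxc2, Nebl, Foxc1, Cd82 and Ptpn1. Comp, with few UMIs, was most like Epha2 (0.91), Arhgef6, Lars2, Nedd9 and Irf2bp2.

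**Figure D3:**
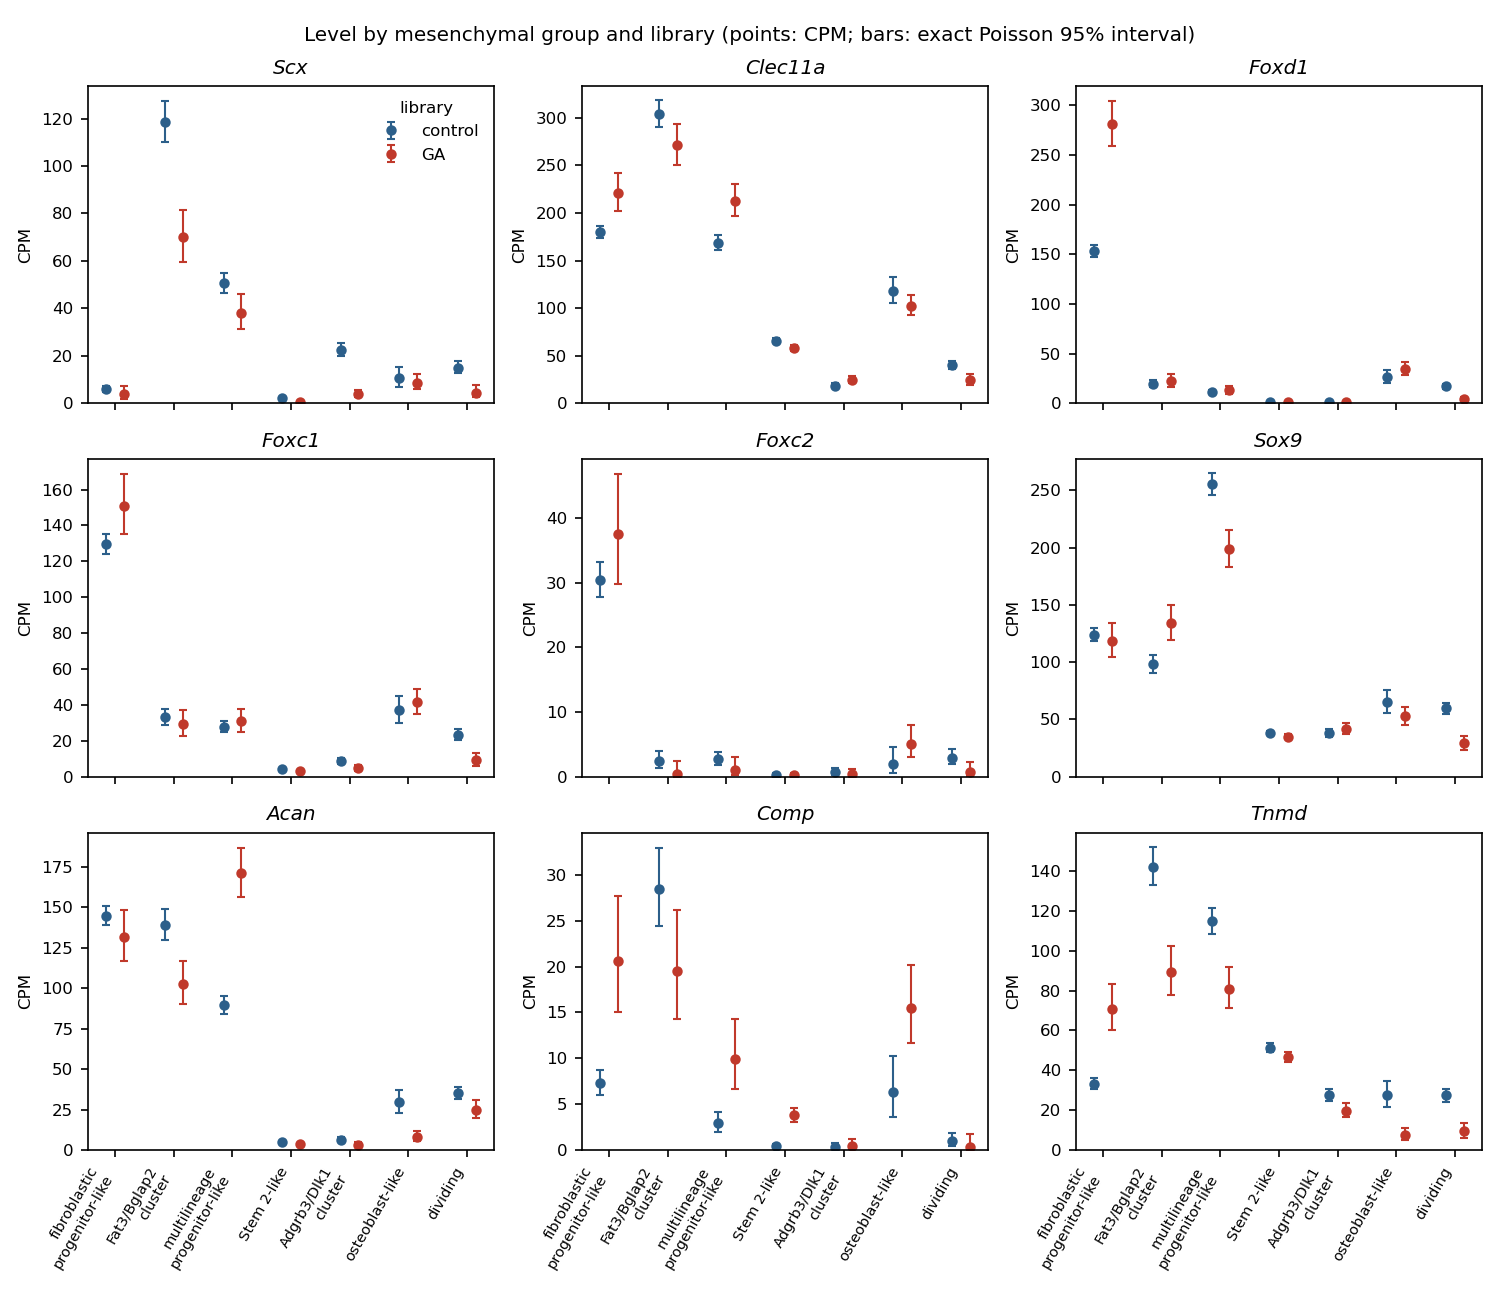
Level of each of the 9 genes in CPM (y axis, from 0) by mesenchymal group (x axis) in the control library (blue) and the GA library (red), with exact Poisson 95% intervals of counting. Foxd1 in the fibroblastic progenitor-like group was 280.7 CPM in GA and 153.6 in control, and Scx was lower in GA in each group.

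In groups set against the rest of the lineage, 6 of the 9 genes were at least 2-fold higher in the fibroblastic progenitor-like group, Clec11a, Foxd1, Foxc1, Foxc2, Acan and Comp, where 9.29% of all genes were. In the multilineage progenitor-like group 5 were, Scx, Clec11a, Sox9, Acan and Tnmd, where 3.28% of all genes were, with Clec11a just past the limit at 2.01-fold. In the Fat3 and Bglap2 cluster 5 were, Scx, Clec11a, Acan, Comp and Tnmd, where 4.22% of all genes were. In the Stem 2-like group 8 of 9 were at least 2-fold lower, where 9.14% of all genes were. Clec11a was just past the limit there, at a log2 ratio of -1.01 (-1.06 to -0.96). Tnmd was level with the rest at 49.5 against 52.3 CPM, but 2752 of its 3337 UMIs in the group came from the Egfl6 and Cxcl14 cluster. The other Stem 2-like clusters had 5.53 to 21.3 CPM of Tnmd. The Egfl6 and Cxcl14 cluster also held 2257 of the 4239 Clec11a UMIs of the group. Acan and Clec11a were thus at least 2-fold higher both in groups with high Scx and in the group with high forkhead levels, while Scx itself was 5.74 CPM in the fibroblastic progenitor-like group against 16.9 CPM in the rest. Scx and Foxd1 were detected together in 52 of 866 cells of GA and 107 of 1747 of control. These counts are descriptions of clusters of the same cells, with no test. Over 10 further seeds of the clustering the log2 ratio of Scx in the multilineage progenitor-like group over the rest lay between 1.31 and 3.14. That of Foxd1 in the fibroblastic progenitor-like group lay between 4.75 and 4.77.

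**Figure D4:**
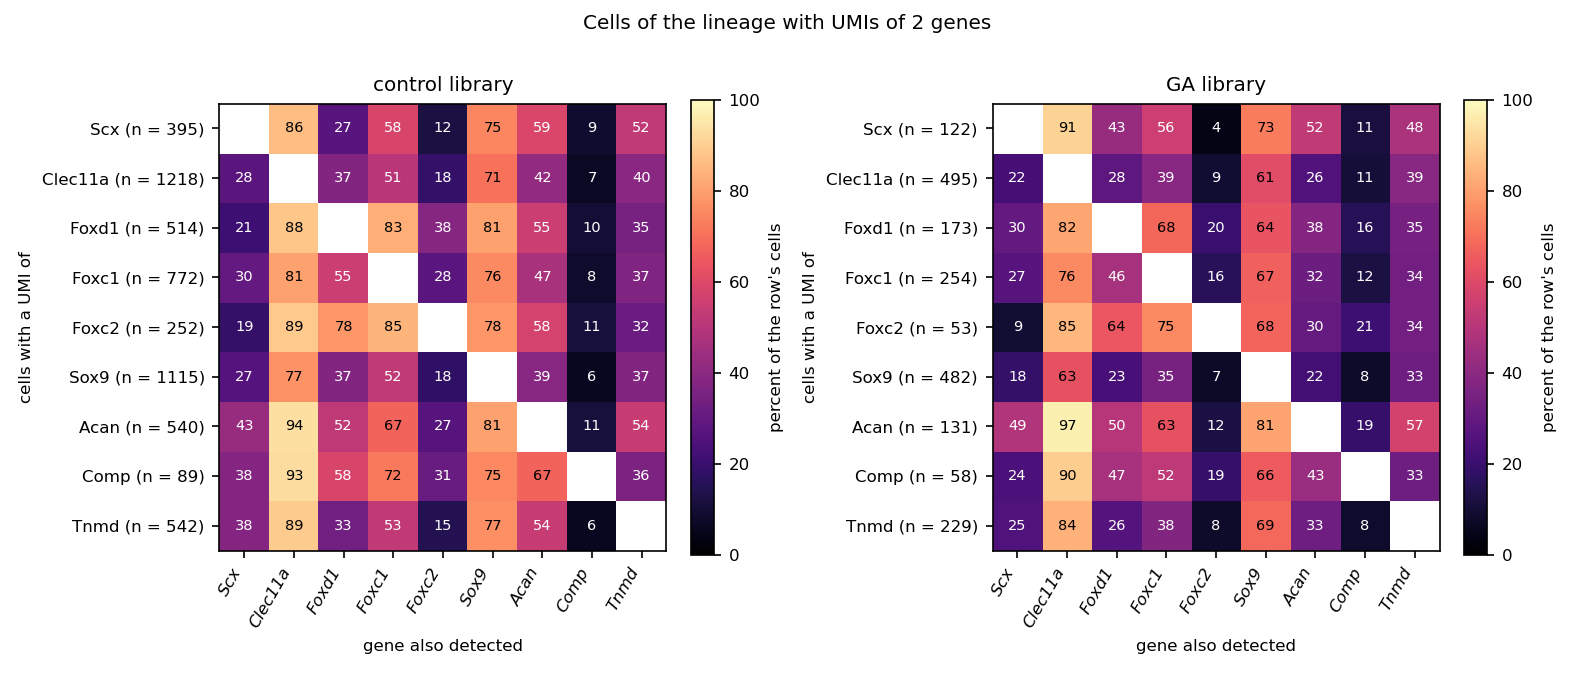
Percent of the cells with a UMI of the row's gene (n in brackets) that also had a UMI of the column's gene, in the lineage of the control library (left) and the GA library (right). Of cells with Foxd1, 82.9% in control and 68.2% in GA also had Foxc1, and of cells with Scx 27.1% and 42.6% had Foxd1.

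Between the libraries, 8 of the 9 genes had a lower level in the lineage in GA and Comp a higher one. Scx was 7.82 CPM in GA (7.05 to 8.66) and 19.1 CPM in control (18.3 to 20.03), a log2 ratio of -1.29 (-1.46 to -1.13). Foxc2 was 2.41 and 6.07 CPM (log2 ratio -1.33, -1.63 to -1.04) and Foxc1 16.2 and 32.7 CPM (-1.01, -1.13 to -0.90). These 3 passed 2-fold, in a lineage where 1.71% of 12816 genes were at least 2-fold lower in GA and 1.76% at least 2-fold higher, and where the median log2 ratio of all genes was -0.02. Foxc1 lay at the limit, and its log2 ratio relative to that median was -0.99. Acan was 26.2 and 49.8 CPM (log2 ratio -0.93), Foxd1 18.1 and 31.1 CPM (-0.78), Sox9 55.6 and 82.5 CPM (-0.57), Tnmd 42.4 and 55.2 CPM (-0.38) and Clec11a 81.6 and 104.5 CPM (-0.36). Comp was 5.84 and 3.81 CPM (log2 ratio 0.62, 0.39 to 0.84), and with no doublets removed the log2 ratio was 0.17. The median of the 9 log2 ratios was -0.78. With 1 library per condition these values compare the libraries and not the treatments.

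The share of cells in each group differed as well. The fibroblastic progenitor-like group made up 60 of 866 lineage cells in GA, 6.93% (5.33 to 8.83), and 369 of 1747 in control, 21.1% (19.2 to 23.1). The multilineage progenitor-like group made up 5.66% and 10.53%, the Stem 2-like group 54.5% and 41.7% and the osteoblast-like group 9.35% and 3.32%. Of the UMIs of the lineage, the fibroblastic progenitor-like group held 4.51% in GA and 16.7% in control. The cluster shares used below are such shares of UMIs, not of cells. The levels of the control library were kept in each cluster and only its cluster shares were set to those of GA. Foxd1 then came to 14.97 CPM, Foxc1 to 17.1, Foxc2 to 2.63 and Acan to 25.4 CPM. These were near or below the GA levels of 18.1, 16.2, 2.41 and 26.2 CPM. The same step took Scx from 19.1 to 15.3 CPM, against 7.82 CPM in GA. With both libraries weighted to the same cluster shares, the log2 ratio of GA over control was -0.86 for Scx, -0.38 for Foxc2, -0.16 for Foxc1, -0.13 for Sox9, -0.02 for Tnmd, 0.09 for Clec11a, 0.18 for Acan, 0.28 for Foxd1 and 1.15 for Comp. Weighted so, 1 of the 9 genes, Comp, was past 2-fold, and without the fibroblastic progenitor-like group 1 was, Scx. The share of all genes past 2-fold under either setting is not given, so these counts have nothing to be read against.

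**Figure D5:**
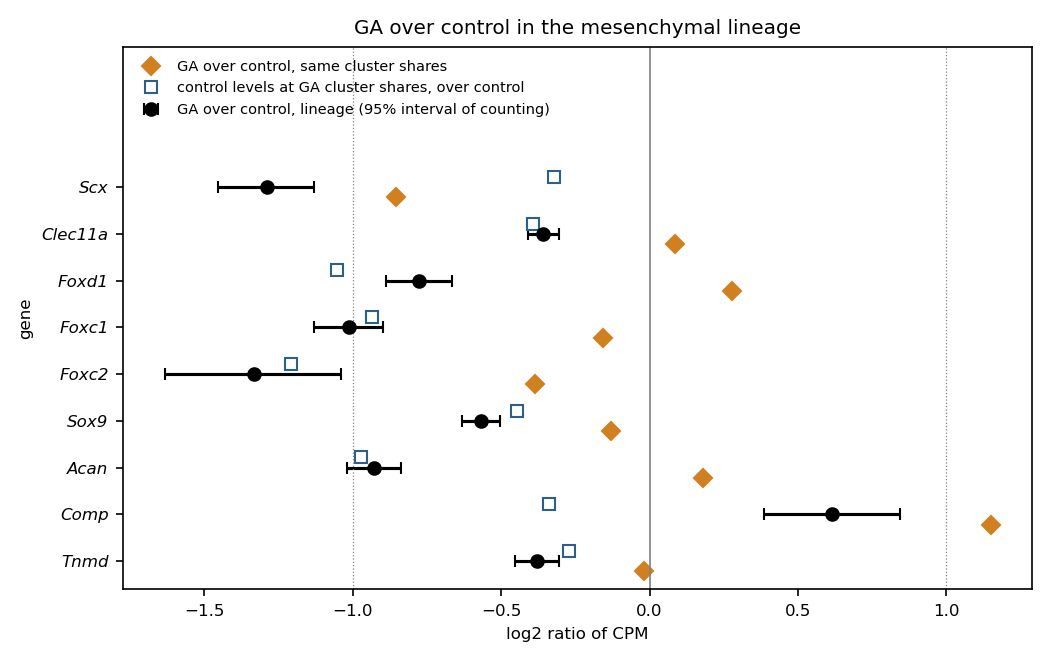
Log2 ratio of GA over control in the mesenchymal lineage for each gene (circles, with the 95% interval of counting), the same with both libraries weighted to equal cluster shares (diamonds), and the control library at the cluster shares of GA over the control library as it is (squares); dotted lines mark 2-fold. Cluster shares are shares of UMIs. For the forkhead genes and Acan the squares lie near the circles or beyond them. For Scx the circle at -1.29 lies well below the square at -0.32.

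The level of Scx was lower in GA in each of the 7 groups, though not in each cluster. In the Adgrb3 and Dlk1 cluster it was 3.74 CPM in GA and 22.6 CPM in control (log2 ratio -2.59, -3.22 to -2.02), in the dividing group 4.50 and 15.1 CPM (-1.74, -2.65 to -0.95), and in the Stem 2-like group 0.69 and 2.08 CPM (-1.59, -2.41 to -0.85). In the groups where Scx was highest, the log2 ratio was -0.76 (-1.02 to -0.51) in the Fat3 and Bglap2 cluster and -0.41 (-0.72 to -0.11) in the multilineage progenitor-like group. The latter depended on the processing, from -0.73 to -0.15 over 10 further seeds and from -2.18 to -0.034 over the other alternatives. In the osteoblast-like group (-0.28, -1.07 to 0.52) and the fibroblastic progenitor-like group (-0.68, -1.93 to 0.36) the intervals included no difference, on 31 and 8 UMIs of Scx in GA. In the multilineage progenitor-like group the share of cells with a UMI of Scx went the other way, 71.4% (56.7 to 83.4) in GA and 62.5% (55.1 to 69.5) in control, with overlapping intervals. By cluster, the direction of the Scx level varied inside the fibroblastic progenitor-like group. It was 10.4 CPM in GA and 2.97 in control in the Palmd cluster (log2 ratio 1.81, 0.34 to 3.07), on 7 UMIs in GA. In the Abcb1a cluster it was 1.13 and 10.0 CPM (-3.14, -8.47 to -0.62), on 1 UMI in GA.

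In the fibroblastic progenitor-like group Foxd1 was higher in GA (log2 ratio 0.87, 0.74 to 1.00), and Foxc1 (0.22, 0.05 to 0.39) and Foxc2 (0.31, -0.05 to 0.65) differed less. The clusters of that group had unequal shares in the libraries, with 19 of the 60 GA cells and 36 of the 369 control cells in the Ptgds cluster. Within that cluster Foxd1 was 595 CPM in GA and 401 in control, in the Abcb1a cluster 170 and 95.5 CPM, and in the Palmd cluster 159 and 167 CPM. Foxc1 was 288 and 186 CPM, 84.9 and 67.8 CPM, and 122 and 178 CPM in the same clusters. The direction was thus not the same in all 3 clusters, on 21 GA cells in the Palmd cluster and 20 in the Abcb1a cluster. Without the 5 cells richest in each gene, the ratio over the whole group was 0.63 for Foxd1 and -0.22 for Foxc2. In the dividing group all 3 forkhead genes were lower in GA, Foxd1 at 3.86 against 16.97 CPM, Foxc1 at 9.01 against 23.4 and Foxc2 at 0.64 against 2.93 CPM, on 36 and 110 cells.

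In the multilineage progenitor-like group Acan was 171.3 CPM in GA and 89.5 in control (log2 ratio 0.94, 0.78 to 1.09), while the share of cells with a UMI was 69.4% and 67.9%. In GA 246 of its 499 UMIs came from 5 cells, and in control 159 of 939. Clec11a was 212.9 and 168.4 CPM (0.34, 0.20 to 0.47), Sox9 198.8 and 255.1 CPM (-0.36, -0.49 to -0.23) and Tnmd 81.0 and 114.7 CPM (-0.50, -0.71 to -0.30). Over 10 further seeds, most of which drew in the Egfl6 and Cxcl14 cluster, the log2 ratio of Tnmd ranged from -0.25 to 0.085 and changed sign. In the other groups Acan had a lower level in GA, from a log2 ratio of -0.14 in the fibroblastic progenitor-like group, whose interval included 0, to -1.85 in the osteoblast-like group, at 8.18 against 29.5 CPM, where 24 of 29 UMIs in GA and 66 of 75 in control came from 5 cells of each library. The clusters of the fibroblastic progenitor-like group did not share that direction. Acan was 185.4 CPM in GA and 139.4 in control in the Palmd cluster (log2 ratio 0.41, 0.13 to 0.68). It was 172.0 and 172.5 CPM in the Abcb1a cluster, and 6.98 and 22.6 CPM in the Ptgds cluster, on 4 UMIs in GA. Tnmd in the fibroblastic progenitor-like group was 70.9 CPM in GA and 33.2 in control (log2 ratio 1.09, 0.82 to 1.36). Comp in the Stem 2-like group was 3.80 CPM in GA and 0.41 in control, but 88 of its 99 UMIs in GA came from 5 cells.

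Cells outside the lineage gave the background. Neutrophil-like cells, 4418 in GA and 2083 in control at medians of 7045 and 5091 UMIs, had at most 0.830 CPM of any of the 9 genes in control, for Clec11a, and a UMI of Scx in 0.096% of cells in control. After thinning each cell to 2000 UMIs, Scx was found in 1.16% of lineage cells of GA and 2.86% of control, and in 0.023% and 0.049% of neutrophil-like cells. From 82.6% to 99.4% of the UMIs of each gene lay in the lineage in either library. Foxc2, Comp and Foxc1 were the least restricted, with 82.6% and 84.4% of Foxc2, 84.1% and 89.9% of Comp and 87.5% and 91.3% of Foxc1 in the lineage of GA and control. Endothelial-like cells had 60.8 CPM (45.8 to 79.1) of Foxc1 in 51 cells of GA and 64.0 CPM (52.9 to 76.8) in 42 cells of control, near the level of the Abcb1a cluster, with little Foxd1, at 2.21 and 1.10 CPM. Pericyte-like cells had all 3 forkhead genes: Foxc1 at 80.9 and 71.0 CPM, Foxc2 at 23.7 and 47.4 CPM and Foxd1 at 21.7 and 29.5 CPM in 117 and 194 cells. Their depth was low, at medians of 2097 and 3525 UMIs, and Foxc2 was detected in 6 and 25 of them. Acan was found in 15 of the 194 pericyte-like cells of control and in 0 of the 117 of GA, which allows a share of cells with a UMI of up to 2.56%. Clec11a was also detected in 10.7% of 402 blood progenitor-like cells of GA and 12.6% of 182 of control, at 4.27 and 6.05 CPM, at medians of 48586.5 and 34859.5 UMIs.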

How the data were processed

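Single cells of 2 libraries were analysed from the UMI count matrices that the authors deposited, made with Cell Ranger 7.0.1 per the file headers and the mouse build mm10 per the submitters' processing notes. Cells with 500 to 140000 UMIs, 200 to 9500 genes and at most 15% mitochondrial UMIs were used. The automatic Scrublet threshold called 3 and 52 doublets (0.0322% and 0.596%) and was treated as not working, so the 695 and 608 cells of highest score were removed, a share set by the number of barcodes. Cells were clustered with scanpy 1.11.5 and leidenalg 0.10.2 on 2000 variable genes scaled as Pearson residuals, with 50 components, a Harmony correction and resolution 1. The 9 genes were left out of the clustering of all cells, from which the lineage was taken. The 9 genes, the naming markers and the genes of the lists were left out of the clustering within the lineage. Clusters were named from marker lists, with thresholds set after the data were seen. Levels are UMIs of a gene summed over cells and scaled to all UMIs of those cells (CPM). Intervals are exact Poisson for levels, exact Clopper-Pearson for shares and exact conditional binomial for ratios, at 95%. A gene was called at 2-fold among genes with at least 200 UMIs. The floor of a count of 0 was set at 3 counts. The 9 genes are named throughout, beside the 5 genes most like each by Pearson correlation, of which 1 is not reported here, and the genes of the lists. The members and lists were chosen with earlier results of these data known. In all, 15 alternatives were planned and 3 added after the data were seen.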

Additional observations from a re-analysis of the deposited data

Results flagged for a closer look

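Tnmd went in opposite directions between the libraries in different groups. Its log2 ratio of GA over control was 1.09 in the fibroblastic progenitor-like group, at 70.9 against 33.2 CPM on 151 and 542 UMIs, and -1.55 in the dividing group, at 9.33 against 27.4 CPM on 29 and 271 UMIs. In the osteoblast-like group it was -1.85, at 7.61 against 27.5 CPM, where all 27 UMIs of GA came from 5 cells and all 70 of control from 4 cells. In the Stem 2-like group as a whole it was -0.14, but by cluster it was 3.22 in the cells led by Pi16, Clec3b and Serpina3n, 2.07 in those led by Kcnj8 and Mmp3 and 0.86 in those led by Pi16, Clec3b and C3. These differences drew attention because the first ones passed 2-fold with intervals of counting error on opposite sides of 0, but with 1 library per condition the difference between groups was not tested.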

How the results depend on the processing

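No paired analysis was possible because each condition had 1 library, and for the same reason no replicate could be left out. Most log2 ratios of GA over control in the lineage stayed within their counting intervals over the alternatives. In all, 95 did, 30 were counted as moved outside and 1 as reversed. Of the 30, those of Clec11a, Foxd1 and Acan at equal cluster shares also changed sign. With no doublets removed, Foxd1 was -0.66, Sox9 -0.49 and Comp 0.17. With each cell thinned to 2000 UMIs, Clec11a was -0.29, Foxd1 -0.30, Foxc1 -0.67, Sox9 -0.50 and Foxc2 0.077. The last was reversed, on only 12 UMIs in GA and 23 in control. After thinning, 0 of the 9 genes kept 200 UMIs and passed 2-fold. Scx was then -1.23 on 12 UMIs in GA and 57 in control, so that it was lost through the minimum of 200 UMIs. Without the 5 cells richest in each gene, Scx was -1.55, Foxd1 -0.97, Foxc2 -1.68, Acan -1.19 and Tnmd -0.49. Without the osteoblast-like group, Foxd1 was -0.89 and Foxc1 -1.20. Without the fibroblastic progenitor-like group, an alternative added after the data were seen, Clec11a was -0.25, Foxd1 -0.17, Foxc1 -0.43, Foxc2 -0.66, Sox9 -0.49, Acan -0.53 and Tnmd -0.54, and 1 gene passed 2-fold. With equal cluster shares, also added, Scx was -0.86, Clec11a 0.086, Foxd1 0.28, Foxc1 -0.16, Foxc2 -0.38, Sox9 -0.13, Acan 0.18, Comp 1.15 and Tnmd -0.018, and 1 gene passed 2-fold. The share of all genes past 2-fold is not given for these alternatives. Comp in the osteoblast-like group reversed to -1.39 with no doublets removed, -0.63 at Leiden resolution 2, -0.10 with log1p of counts, -0.34 with cells from 2000 UMIs and -1.45 after thinning. With log1p of counts and with cells from 2000 UMIs that group took in 148 and 157 of the 181 cells of the Fat3 and Bglap2 cluster. In the grouping used here Comp in that cluster was -0.54, on 45 UMIs in GA and 176 in control. The cause of the changes over the alternatives was not tested. Over the alternatives, Scx in the multilineage progenitor-like group over the rest lay between 1.602 and 3.31 and Tnmd between 0.97 and 3.49 on the log2 scale, while Foxd1 in the fibroblastic progenitor-like group lay between 4.38 and 5.09. Comp in the osteoblast-like group over the rest lay between 0.14 and 3.36. Each gene's top group was taken among the named groups only. With both libraries summed, Scx, Clec11a, Comp and Tnmd were higher in the Fat3 and Bglap2 cluster than in that group. Of the ratios of the top named group over the rest, 61 stayed within the counting interval and 56 moved. Of those of GA over control in that group, 92 stayed, 29 moved and 5 reversed. Depth limits Foxc2 and Comp most, with 707 and 648 UMIs in the lineage.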
